A study of Homo sapiens with 4 samples.

Results

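The cytosolic ribosome genes described here are the 86 names, of 55764 in the deposited expression table, that carry a human cytosolic ribosomal protein symbol (RPL or RPS and a number, plus RPSA, RPLP0, RPLP1 and RPLP2, and without RPS27L). Of these, 53 belong to the large subunit and 33 to the small subunit. Most of the names are the standard genes, and the rest are the paralogs RPL3L, RPL7L1, RPL10L, RPL22L1, RPL26L1 and RPL39L and 3 older names. RefSeq lists RPL12L3 as an older name of the pseudogene RPL12P12 and RPS10L as one of the pseudogene RPS10P5, so the older names were not read as paralogs.

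The study sequenced bulk RNA of TE5, a human cell line from an oesophageal squamous cell carcinoma, to see how the transcriptome differs when the transcription factor ETS1 is overexpressed. The ETS1 group was 2 libraries of cells that stably carried a CMV-driven ETS1 vector delivered by lentivirus and were then selected, and the control group was 2 libraries of cells that carried the empty backbone. All 4 were grown in the same medium, and both groups passed through the same viral delivery. The labels do not say whether the libraries of a group came from separate infections or cultures, so the p-values measure only the spread between these libraries, which may be technical.

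The ribosome joins a small subunit, which reads the mRNA, and a large subunit, which forms the peptide bond and holds the tunnel through which the new chain leaves. Each ribosomal protein is normally present once per ribosome, apart from the stalk proteins, and free copies are degraded, so their mRNAs are among the most abundant of a growing cell. Most of these mRNAs begin with a C followed by an unbroken run of pyrimidines, the 5′ terminal oligopyrimidine tract, through which LARP1 and mTORC1 control their translation.

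The tract was visible in the reference sequence of most members. Windows of 30 bases around the annotated transcription start, 15 bases before it and 15 from it on, are shown for members with large falls (RPL12, RPLP1, RPL35, RPL32 and RPL34 of the large and RPS28, RPS26 and RPS12 of the small subunit), for members that did not pass the test and for both parent and paralog of 2 pairs. The C at the start and the C or T run that follows it are in capitals (RefSeq, GRCh38.p14, 5′ to 3′ on the gene's strand). Where a gene has several annotated starts, the one with the longest run is shown, or the first listed where none has one.
RPL12: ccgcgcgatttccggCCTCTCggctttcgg
RPLP1: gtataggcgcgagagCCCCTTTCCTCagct
RPL35: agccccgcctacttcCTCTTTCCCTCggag
RPL32: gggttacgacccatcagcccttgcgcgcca
RPL34: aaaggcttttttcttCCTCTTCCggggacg
RPS28: tccccgaagcacgtgactcctctccgccag
RPS26: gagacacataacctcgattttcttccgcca
RPS12: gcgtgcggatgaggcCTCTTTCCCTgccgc
RPL27A: ttggcgaaggccttcCTTTTTCgtctgggc
RPL13A: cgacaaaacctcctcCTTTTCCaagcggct
RPS16: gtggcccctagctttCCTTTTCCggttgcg
RPL22: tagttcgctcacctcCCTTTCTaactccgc
RPL22L1: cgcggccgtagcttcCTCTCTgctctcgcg
RPL26: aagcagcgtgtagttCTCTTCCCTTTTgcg
RPL26L1: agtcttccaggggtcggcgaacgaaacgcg
The windows lie at chr9:127451392-127451421 for RPL12, chr15:69452803-69452832 for RPLP1, chr9:124861943-124861972 for RPL35, chr3:12841551-12841580 for RPL32 and chr4:108620561-108620590 for RPL34. Those of the small subunit's large falls lie at chr19:8321481-8321510 for RPS28, chr12:56041903-56041932 for RPS26 and chr6:132814554-132814583 for RPS12. The other windows lie at chr11:8682777-8682806 for RPL27A, chr19:49487593-49487622 for RPL13A, chr19:39435935-39435964 for RPS16, chr1:6199581-6199610 for RPL22, chr3:170870181-170870210 for RPL22L1, chr17:8383179-8383208 for RPL26 and chr5:172958714-172958743 for RPL26L1. Of these 15 windows 4 hold no tract at the annotated start, those of RPL32, RPS28, RPS26 and RPL26L1, all of which fell. Each window spans the end of the promoter and the first bases of the 5′ untranslated region.

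The overexpressed gene rose as labelled: ETS1 was at 0.491 and 0.509 FPKM in the control libraries and 1.84 and 1.87 FPKM in the ETS1 libraries. On the log2(FPKM + 1) scale its change was 0.93 ± 0.062 (SE; limma adjusted p = 0.000704), and at levels this low that scale understates the change in FPKM. Markers of the labelled squamous lineage were mostly absent. Of 9 squamous epithelial markers, 1 (SOX2) reached a mean of 1 FPKM, and KRT5 and TP63 were at 0 in both control libraries, while 3 of 5 general epithelial markers reached that level. Of 14 markers of other cells, 4 did, led by the neurofilament genes NEFL (38.8 and 38.4 FPKM in the control libraries and 25.4 and 26.1 FPKM in the ETS1 libraries) and NEFM (20.8 and 21.6 FPKM in the control libraries and 35.6 and 34.9 FPKM in the ETS1 libraries). The summed level of those 14 was 62.8 and 63.1 FPKM in the controls and 65.7 and 65.7 FPKM in the ETS1 libraries, and its part in the results below was not tested. Reads recovered from the tables were 40356723 and 44119604 in the controls and 57269984 and 56502875 in the ETS1 libraries. Genes of the mitochondrial genome held 9.25% of the summed FPKM in each control library and 16.3% and 16.9% in the ETS1 libraries.

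Ribosomal protein mRNAs were lower in the ETS1 libraries across most of the family. Their summed level was 45389.8 and 46482 FPKM in the control libraries and 38347 and 37509.5 FPKM in the ETS1 libraries, so the groups did not overlap and the ETS1 mean was 17.4% lower. As a share of all FPKM this was 12.4% and 12.6% in the controls and 10.5% and 10.3% in the ETS1 libraries. With the genes of the mitochondrial genome left out of the total, the shares were 13.6% and 13.9% against 12.5% and 12.4%, a gap of 9.55% of the control share in place of 16.8%. In bulk RNA a change in the number of cells of a type and a change in RNA per cell cannot be told apart.

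Of the 82 members with a mean of at least 1 FPKM, 62 fell, 1 rose and 19 did not pass the threshold (limma on log2(FPKM + 1), Benjamini-Hochberg adjusted p under 0.05 over 14306 genes). Over all genes tested, 28.4% were called lower and 30.7% higher. Both ETS1 libraries lay below both controls for 76 members, above them for 1 and overlapped them for 5, where 38.9% of all tested genes lay below and 43.1% above. The median log2 change of the members was -0.23, against 0.016 over all genes tested, and 79 of the 82 changes were negative. Abundant genes as a whole were also lower: among 867 tested genes outside the family with a mean of at least 50 FPKM, 59.1% were called lower, and their median change was -0.16. The members' share called lower, 75.6%, is to be read against that background as well as against all genes. After quantile normalization of the libraries 41 members were called lower and 4 higher, and their median change was -0.11. In the authors' deposited table, whose log2 changes come from DESeq2, 72 of 83 members with an adjusted p-value were lower and 0 higher, where 25.9% of all genes were lower and 25.3% higher at the same threshold. The authors' table and the limma fit rest on the same 4 libraries.

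**Figure D1:**
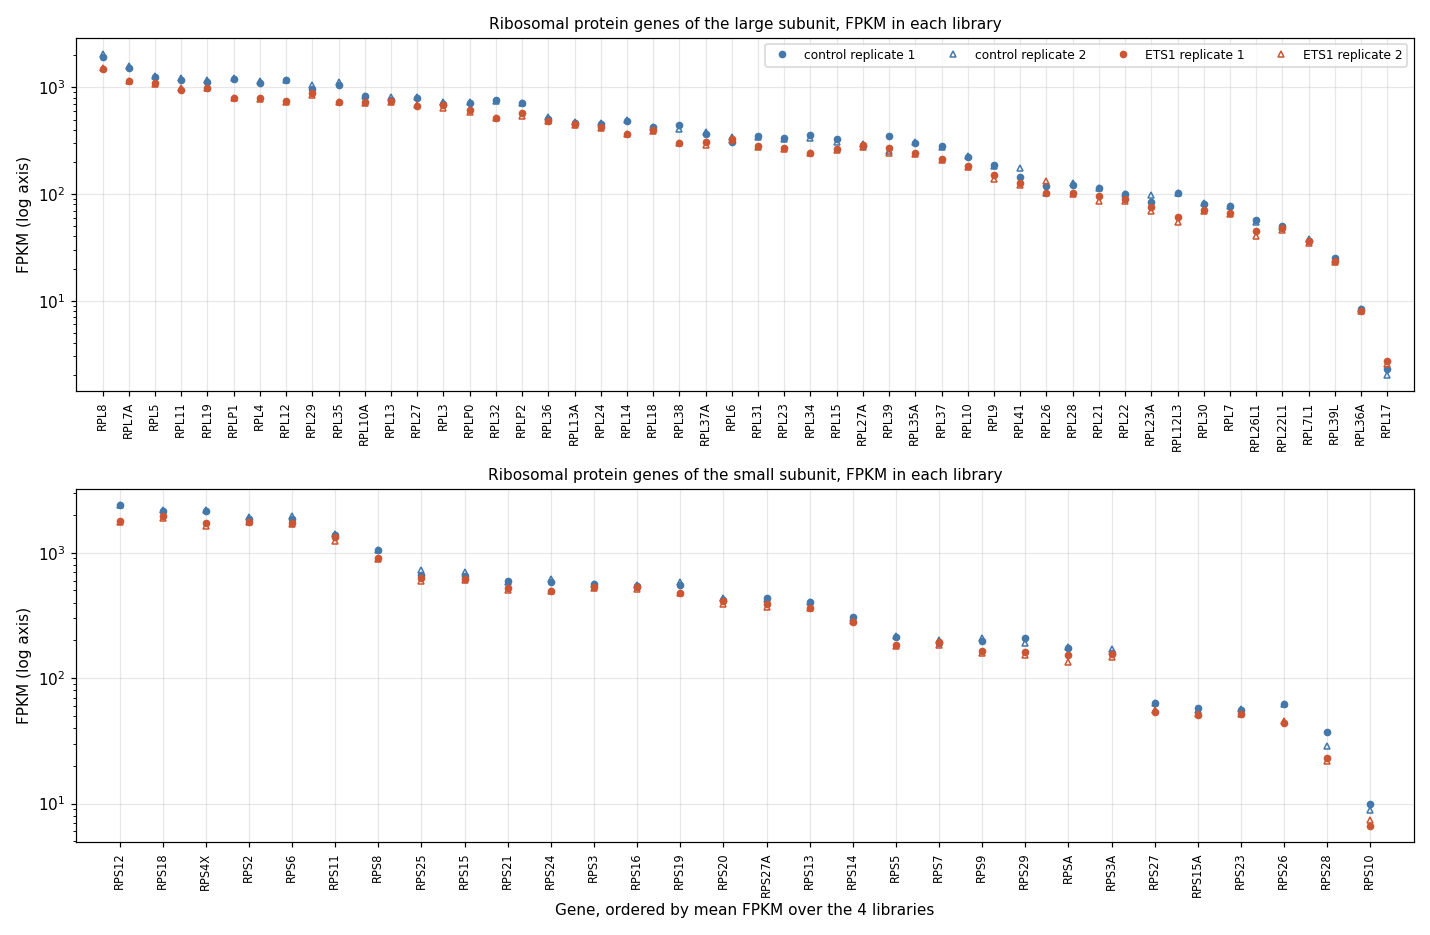
FPKM (log axis) of 80 of the tested ribosomal protein genes in each of the 4 libraries, ordered by mean level, with the large subunit above and the small subunit below. Levels run from about 2.40 FPKM for RPL17 to 2096 FPKM for RPS12, and the ETS1 points lie under both control points for 74 of them.

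The 5 members with the highest mean FPKM over the 4 libraries were of the small subunit. FPKM divides by the length of the annotated exons, so this order is not one of mRNA copies. In control replicate 1 RPS12, with 767 exon bases, held 73741 reads, and RPL4, with 5637 exon bases and a lower FPKM, held 250818. RPS12, a protein of the small subunit's beak, was at 2392 and 2413 FPKM in the control libraries and 1805 and 1772 FPKM in the ETS1 libraries, and its log2 change was -0.43 ± 0.033 (SE; limma adjusted p = 0.000904). RPS18, which contacts the large subunit at the head of the small one, was at 2157 and 2202 FPKM in the control libraries and 1956 and 1908 FPKM in the ETS1 libraries, with a change of -0.17 ± 0.035 (SE; limma adjusted p = 0.0112). RPS4X, the X-linked form of a small subunit protein that also has a Y-linked form, was at 2163 and 2204 FPKM in the control libraries and 1727 and 1622 FPKM in the ETS1 libraries and changed by -0.38 ± 0.043 (SE; limma adjusted p = 0.00213). In all 3 both ETS1 libraries were below both controls. With a trend on gene length and GC content removed, RPS12 changed by -0.23 and was still called lower. RPS6, the substrate of the S6 kinases downstream of mTORC1, was at 1861 and 1963 FPKM in the control libraries and 1721 and 1679.7 FPKM in the ETS1 libraries and changed by -0.17 ± 0.041 (SE; limma adjusted p = 0.0208). RPS2, which lines the entry of the mRNA channel, was at 1846 and 1916 FPKM in the control libraries and 1759.5 and 1752 FPKM in the ETS1 libraries, and its change of -0.099 did not pass (adjusted p = 0.0629 in limma), although its groups did not overlap either. The call of RPS6 was lost without control replicate 2, ETS1 replicate 1 or ETS1 replicate 2 (adjusted p = 0.0809, 0.0553 and 0.0940), and that of RPS18 without control replicate 2 or ETS1 replicate 2 (0.0534 and 0.0637). RPS6 also missed the threshold with the chromosome's median change removed (-0.076, limma adjusted p = 0.142), after quantile normalization (-0.11, 0.122), with the length and GC trend removed (-0.11, 0.0520), without the filter (0.193) and with a replicate block (0.0510). With the median of neighbouring genes removed it changed by -0.36. With the length and GC trend removed RPS18 changed by -0.025 (limma adjusted p = 0.551). RPL8, of the large subunit, was at 1939 and 2065 FPKM in the control libraries and 1502 and 1523 FPKM in the ETS1 libraries, above RPS2 in the controls and below it in the ETS1 libraries. In the ETS1 libraries the levels of RPS4X and RPS6 interleaved, so their order was not beyond the spread between libraries.

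**Figure D2:**
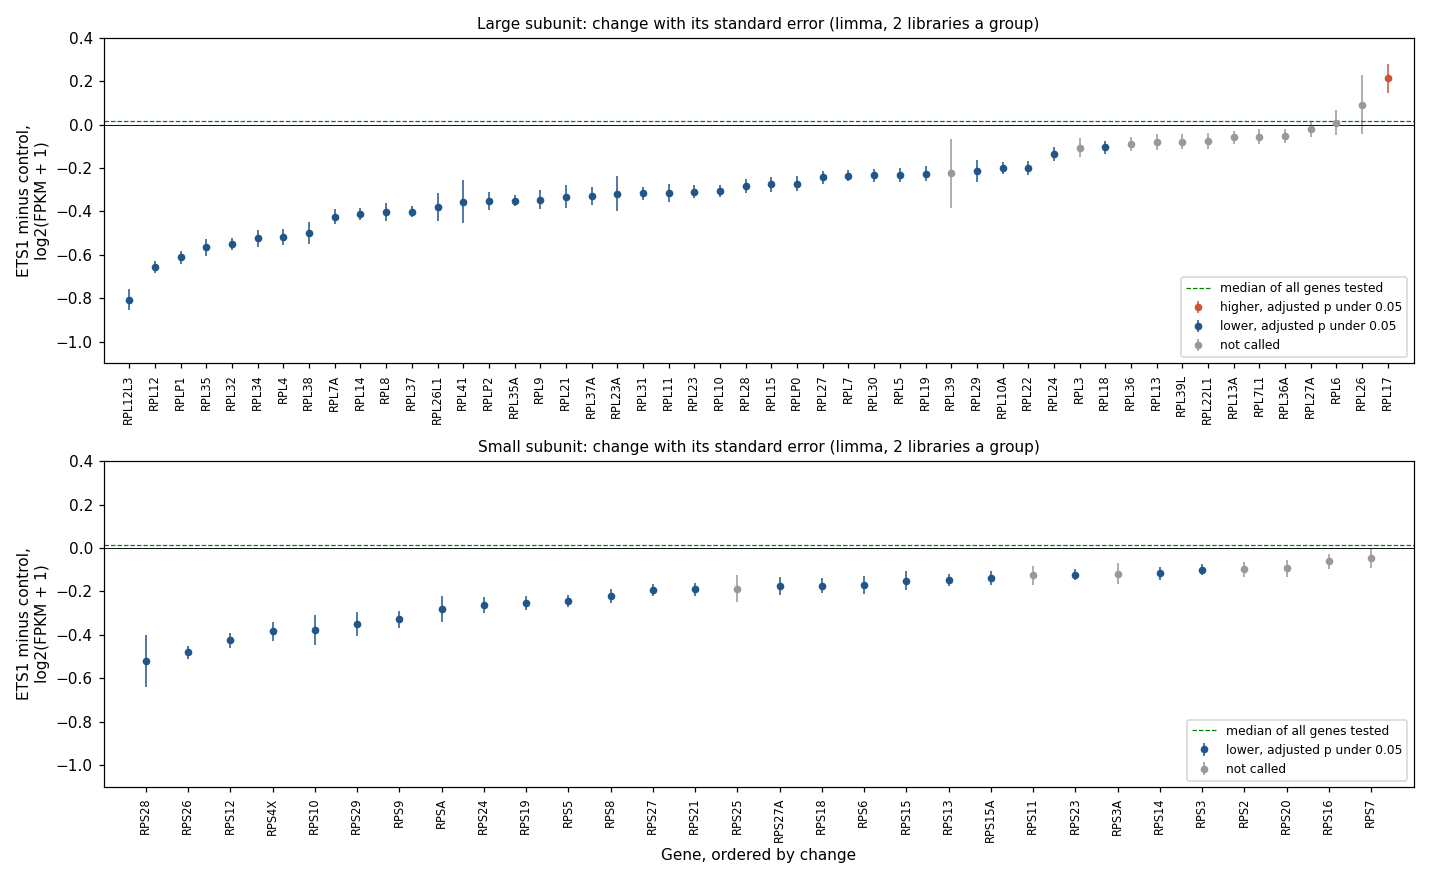
Change of 80 of the tested members, ETS1 minus control on the log2(FPKM + 1) scale, with its standard error, ordered within each subunit. Points for the 60 of them called lower lie below 0, 1 member called higher (RPL17) lies above it, and the dashed line marks the median of all genes tested at 0.016.

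In the large subunit, 38 of 51 tested members fell and 1 rose, with a median log2 change of -0.28. Of all tested genes, 28.4% were called lower and 30.7% higher. The P stalk recruits the GTPase translation factors. It is built on RPLP0 and RPL12 and carries RPLP1 and RPLP2, and all 4 of its genes fell, with a median of -0.48. All 4 are abundant, and of abundant genes outside the family 59.1% were called lower, with a median of -0.16. RPL12 was at 1169.6 and 1165 FPKM in the control libraries and 743 and 737 FPKM in the ETS1 libraries, a change of -0.66 ± 0.028 (SE; limma adjusted p = 0.000441). RPLP1 was at 1207 and 1223 FPKM in the control libraries and 801 and 789.6 FPKM in the ETS1 libraries, a change of -0.61 ± 0.030 (SE; limma adjusted p = 0.000482). For both genes the ETS1 libraries lay far below the controls, and the libraries of a group nearly coincided. RPLP2 was at 711 and 712 FPKM in the control libraries and 576 and 539 FPKM in the ETS1 libraries and changed by -0.35 ± 0.040 (SE; limma adjusted p = 0.00223). RPLP0, a gene often used as a reference in quantitative PCR, was at 716 and 731 FPKM in the control libraries and 613 and 586 FPKM in the ETS1 libraries and changed by -0.27 ± 0.035 (SE; limma adjusted p = 0.00320). With the median change of the 20 nearest genes on each side removed, RPL12 changed by -0.35, and by -0.23 with the length and GC trend removed too. RPLP1 changed by -0.38 with the chromosome median removed, RPLP2 by -0.19 with the length and GC trend removed, and RPLP0 by -0.11 after quantile normalization. All 4 kept their calls there.

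RPL5 and RPL11 bind the 5S ribosomal RNA, and outside the ribosome the same complex binds and inhibits MDM2. RPL5 was at 1261 and 1291 FPKM in the control libraries and 1098 and 1074 FPKM in the ETS1 libraries, a change of -0.23 ± 0.032 (SE; limma adjusted p = 0.00389), and RPL11 changed by -0.31 ± 0.041 (SE; limma adjusted p = 0.00320). RPL11 was at 1173 and 1235 FPKM in the control libraries and 949.7 and 986 FPKM in the ETS1 libraries, again with no overlap of the groups. Near the peptidyl transferase centre, RPL8 and RPL10 fell, by 0.40 and 0.31 on the log2 scale. The call of RPL8 was lost with the neighbouring median removed (-0.071, limma adjusted p = 0.187), and with the length and GC trend removed too its sign turned (0.030). RPL10 and RPL11 changed by -0.15 and -0.13 after quantile normalization, and RPL5 by -0.43 with the neighbouring median removed. Without the filter RPL5 was not called (limma adjusted p = 0.0570). RPL3, whose loop also reaches that centre, was at 704 and 729 FPKM in the control libraries and 687 and 645 FPKM in the ETS1 libraries and its change of -0.11 did not pass in limma (adjusted p = 0.0860). RPL10A, the protein of the L1 stalk through which used tRNA leaves, changed by -0.20 ± 0.029 (SE; limma adjusted p = 0.00414). Its call was lost with the length and GC trend removed (-0.017, limma adjusted p = 0.638) and after quantile normalization (-0.078, 0.0622).

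Of the 3 genes whose proteins line the exit tunnel, 1 fell, 1 rose and 1 did not pass the test. Over all tested genes 28.4% were called lower and 30.7% higher. RPL4 fell, from 1101 and 1146 FPKM in the controls to 793 and 775 FPKM in the ETS1 libraries, a change of -0.52 ± 0.035 (SE; limma adjusted p = 0.000732), and of -0.29 with the chromosome median removed. RPL39 was at 350.1 and 254 FPKM in the control libraries and 270.2 and 241 FPKM in the ETS1 libraries, so the groups overlapped, and its change of -0.22 had an SE of 0.16 (limma adjusted p = 0.277). Control replicate 1 was the highest of the 4, and without that library the change was 0.0070. Without control replicate 2 it was -0.46 and was called lower (limma adjusted p = 0.0114). RPL17 was the 1 member called higher, at 2.28 and 2.01 FPKM in the control libraries and 2.74 and 2.55 FPKM in the ETS1 libraries, a change of 0.21 ± 0.065 (SE; limma adjusted p = 0.0413). It was also the lowest of the tested members, with 218 to 385 reads in a library, and its adjusted p ranged from 0.0113 to 0.344 over the alternatives. Exons of other genes on the same strand, among them the readthrough gene RPL17-C18orf32 (listed at 0 FPKM in every library), cover 32.7% of its exon bases in GENCODE 29.

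Around the tunnel exit, where the nascent chain meets chaperones and the signal recognition particle, 4 of 5 members fell. Beside this count, 75.6% of all tested members and 59.1% of abundant genes outside the family were called lower. RPL35 was at 1049 and 1116 FPKM in the control libraries and 724 and 738 FPKM in the ETS1 libraries, a change of -0.57 ± 0.041 (SE; limma adjusted p = 0.000812), and RPL31, RPL23A and RPL19 changed by -0.32, -0.32 and -0.23. With the neighbouring median removed RPL35 changed by -0.36, and by -0.22 with the length and GC trend removed too. After quantile normalization RPL31 changed by -0.17, while RPL23A (-0.17) and RPL19 (-0.066) were no longer called (limma adjusted p = 0.120 and 0.0555). RPL23A was not called without ETS1 replicate 2 either (limma adjusted p = 0.0905), and changed by -0.21 without control replicate 2. RPL26, the fifth, was at 118 and 101 FPKM in the control libraries and 103 and 132 FPKM in the ETS1 libraries. Its ETS1 libraries lay on both sides of the controls, and its change of 0.093 did not pass (limma adjusted p = 0.585). RPL32 completes the members of the large subunit with the largest falls, at 759.7 and 751 FPKM in the control libraries and 518 and 513 FPKM in the ETS1 libraries, a change of -0.55 ± 0.028 (SE; limma adjusted p = 0.000486), and of -0.36 with the neighbouring median removed. At the other end, RPL6 was at 308 and 343 FPKM in the control libraries and 331 and 323 FPKM in the ETS1 libraries. Its libraries overlapped and its change was 0.0084 (limma adjusted p = 0.910). After quantile normalization it was called higher, at 0.23 (limma adjusted p = 0.0129).

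In the small subunit, 24 of 31 tested members fell and 0 rose, with a median of -0.19. No member of the small subunit passed as higher at an unadjusted p under 0.05 either, since all 31 changes were negative. Over all tested genes the adjusted calls were 28.4% lower and 30.7% higher, and 59.1% of abundant genes outside the family were lower.

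All 4 members of the beak and head fell, RPS10, RPS12 and RPS19 among them, with a median of -0.40. This count and that of the mRNA exit channel stand beside 28.4% of all tested genes and 59.1% of abundant ones outside the family called lower. RPS10, which is ubiquitinated on collided ribosomes, was at 9.92 and 8.96 FPKM in the control libraries and 6.65 and 7.43 FPKM in the ETS1 libraries and changed by -0.38 ± 0.069 (SE; limma adjusted p = 0.00879). The readthrough gene RPS10-NUDT3, listed at 0 FPKM throughout, covers 39.4% of its exon bases. Around the mRNA exit channel 5 of 6 members fell, with a median of -0.26. RPS28 was at 37.2 and 28.9 FPKM in the control libraries and 23.3 and 21.9 FPKM in the ETS1 libraries, with a change of -0.52 ± 0.12 (SE; limma adjusted p = 0.0174) and the widest spread of those 5. Its call was lost without ETS1 replicate 2 (limma adjusted p = 0.0616), and without control replicate 1 its change was -0.34. RPS26, which contacts the mRNA upstream of the start codon, was at 62.8 and 62.5 FPKM in the control libraries and 43.6 and 45.5 FPKM in the ETS1 libraries, a change of -0.48 ± 0.031 (SE; limma adjusted p = 0.000678). With both the neighbouring median and the length and GC trend removed, RPS26 changed by -0.27, RPS10 by -0.25 and RPS19 by -0.099, all still called lower. Without the filter RPS10 was not called (limma adjusted p = 0.0530). RPSA, also known as the laminin receptor precursor, was at 173 and 178 FPKM in the control libraries and 153 and 136 FPKM in the ETS1 libraries, a change of -0.28 ± 0.062 (SE; limma adjusted p = 0.0153). After quantile normalization RPSA changed by -0.074 and was not called (limma adjusted p = 0.363).

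The genes around the mRNA entry and decoding centre, RPS2, RPS3, RPS15 and RPS23, had a median change of -0.11. Of these 3 fell, where 59.1% of abundant genes outside the family were called lower. All 4 were above 0 after quantile normalization. RPS3, RPS15 and RPS23 then changed by 0.028, 0.053 and 0.016. The calls of RPS3 and RPS15 were also lost without control replicate 2, ETS1 replicate 1 or ETS1 replicate 2, that of RPS3 without control replicate 1 too, and that of RPS23 without either ETS1 library. The smallest changes in the small subunit were those of RPS7, RPS16 and RPS20. RPS7, which can also bind MDM2, was at 190.3 and 201 FPKM in the control libraries and 195 and 184 FPKM in the ETS1 libraries, so its groups overlapped, and its change was -0.048 (limma adjusted p = 0.390). RPS16 and RPS20 changed by -0.061 and -0.093 (limma adjusted p = 0.190 and 0.0992). These 3, with RPS2, took the opposite sign after quantile normalization of the libraries, at 0.0071 to 0.13, and RPS16 was then called higher (limma adjusted p = 0.0214). Other alternatives called them lower. With the neighbouring median removed RPS7 changed by -0.15 and RPS20 by -0.20 (limma adjusted p = 0.0287 and 0.00703), and with the chromosome median removed RPS7 changed by -0.14 (limma adjusted p = 0.0352). RPS2 was called lower with trimmed-mean scaling and with a robust prior (limma adjusted p = 0.0453 and 0.0467). In the authors' deposited table the adjusted p-values of RPS2, RPS20 and RPS16 were 0.00110, 0.00790 and 0.0458, with log2 changes of -0.12, -0.11 and -0.077.

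Between the subunits, the large one was the more reduced in summed FPKM. The sum over the large subunit was 1.27 times that of the small subunit in each control library, and 1.16 and 1.18 times in the ETS1 libraries. FPKM divides by the length of the annotated exons, so these are not ratios of mRNA copies. The large subunit's sum was 20.2% lower in the ETS1 libraries and the small subunit's 13.9% lower. The medians of the single changes differed in the same direction, by -0.089 on the log2 scale. That difference came to -0.027 once the median change of the 20 nearest genes on each side was removed, and to 0.016 with a length and GC trend removed too. The share of members called lower was close in both, 74.5% of the large and 77.4% of the small subunit. With 2 libraries a group, a two-sided exact permutation test of a single value reaches 0.333 at the lowest, and the ratio of sums was not tested.

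Each paralog was set against its parent gene. RPL22L1, which shares 66.6% of its aligned coding bases and gaps with RPL22 and can take its place in the ribosome, was at 49.9 and 49.2 FPKM in the control libraries and 48.5 and 45.6 FPKM in the ETS1 libraries, and its change of -0.075 did not pass (limma adjusted p = 0.149). It was called lower with the chromosome median removed (-0.12, limma adjusted p = 0.0407), with the neighbouring median removed (-0.25, 0.00319) and with both that median and the length and GC trend removed (-0.13, 0.0324). RPL22 was at 99.7 and 101 FPKM in the control libraries and 89.3 and 85.3 FPKM in the ETS1 libraries and fell, by 0.20 on the log2 scale (limma adjusted p = 0.00610). After quantile normalization RPL22 changed by -0.043 and was not called (limma adjusted p = 0.229). The paralog was thus at 50.03% and 48.8% of its parent in the controls and at 54.3% and 53.4% in the ETS1 libraries. RPL7L1, a factor related to RPL7 that acts in ribosome assembly, was at 46.6% and 49.0% of RPL7 in the controls and 54.4% and 54.0% in the ETS1 libraries. RPL7L1 itself was at 36.2 and 37.9 FPKM in the control libraries and 36.2 and 35.1 FPKM in the ETS1 libraries, with a change of -0.055 that did not pass (limma adjusted p = 0.236), and RPL7 fell by 0.23 (limma adjusted p = 0.00211). RPL7L1 was called lower with the length and GC trend removed (-0.11, limma adjusted p = 0.0482) and with the chromosome median removed (-0.12, 0.0270). With the chromosome median removed RPL7 changed by -0.075 and was not called (limma adjusted p = 0.0575), and with the neighbouring median removed by -0.42.

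RPL26L1 fell, at 57.3 and 54.8 FPKM in the control libraries and 45.5 and 40.4 FPKM in the ETS1 libraries, a change of -0.38 ± 0.063 (SE; limma adjusted p = 0.00628), and of -0.20 with the length and GC trend removed. With the neighbouring median removed too it changed by -0.18 and was not called (limma adjusted p = 0.0510). Its ratio to RPL26 was 48.5% and 54.1% in the controls and 44.1% and 30.5% in the ETS1 libraries, and most of the gap between the last 2 values lay in RPL26, at 103 and 132 FPKM. RPL39L, a paralog best known from the testis and from some tumours, was at 25.2 and 24.2 FPKM in the control libraries and 23.6 and 23.1 FPKM in the ETS1 libraries, and its change of -0.078 did not pass (limma adjusted p = 0.0981). It was called higher with the length and GC trend removed (0.11, limma adjusted p = 0.0294) and lower with the neighbouring median removed (-0.17, 0.00800). Its ratio to RPL39 overlapped between the groups, at 7.20% and 9.55% against 8.74% and 9.60%. Of the reads of RPL39 and its pseudogenes, a mean of 78.8% in the controls stood under pseudogene names, and 37.6% for RPL3. Ratios to these 2 parents may therefore be too high. RPL3L, the form of RPL3 made in heart and skeletal muscle, was at 0.989 and 1.01 FPKM in the control libraries and 0.810 and 0.712 FPKM in the ETS1 libraries, below the level needed for the test, and came to 0.140% and 0.139% of RPL3 in the controls and 0.118% and 0.110% in the ETS1 libraries. RPL10L, a testis gene that can replace RPL10, was listed at 0 in all 4 libraries, while RPL10 was at 223 and 229 FPKM in the control libraries and 185 and 181 FPKM in the ETS1 libraries.

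For 4 of the 5 pairs with a ratio the groups did not overlap, and the exact two-sided permutation p was 0.333, the smallest that 2 libraries against 2 can give, with an adjusted value no lower. For RPL39L over RPL39 it was 0.667. Most single tested genes did not overlap either: both ETS1 libraries lay below both controls for 38.9% and above them for 43.1%. The log2 ratio of paralog to parent was higher in the ETS1 libraries by 0.18 for RPL7L1 and 0.12 for RPL22L1 and lower for RPL26L1 and RPL3L, with differences of -0.48 and -0.29. On the log2(FPKM + 1) scale the difference for RPL3L, a gene near 1 FPKM, was -0.077, and in the authors' deposited table it was -0.13. Leaving out 1 library gave -0.73 (without ETS1 replicate 1) to -0.21 (without ETS1 replicate 2) for RPL26L1. With the median of each gene's chromosome removed, the value for RPL7L1 was -0.050, and with the median of the neighbouring genes removed that for RPL22L1 was -0.049.

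**Figure D3:**
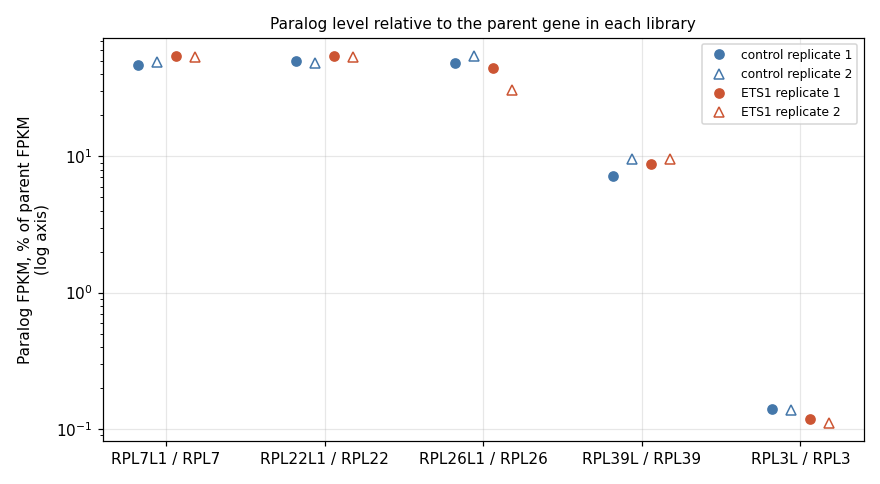
FPKM of each paralog as a percent of its parent's FPKM (log axis) in the 4 libraries. Reads under pseudogene names are not counted for the parent. RPL7L1 and RPL22L1 sit between 46.6% and 54.4% with the ETS1 points above the control points, RPL39L overlaps between groups, and RPL3L lies between 0.110% and 0.140%.

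Of the older names, RPL12L3 (the pseudogene RPL12P12) was at 102 and 101 FPKM in the control libraries and 60.3 and 55.1 FPKM in the ETS1 libraries, a change of -0.81 ± 0.048 (SE; limma adjusted p = 0.000611) beside -0.66 for RPL12, whose reads it may share. RPS10L, at 0.0426 to 0.0998 FPKM, was under the level needed for the test.

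Processed pseudogenes held many of the reads of this family. The table lists 812 pseudogene names with a member as parent, and 115 of them were tested, of which 59 were called lower and 9 higher, beside 28.4% and 30.7% of all tested genes, with a median change of -0.22. They held 12.66% and 12.58% of the reads of members and pseudogenes together in the controls and 13.07% and 13.002% in the ETS1 libraries. For 4 parents over 50% of the family's reads stood under pseudogene names. Among them the mean control share was 82.8% for RPS3A, 78.8% for RPL39 and 60.6% for RPSA.

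The case of RPL39 is shown in full. The processed pseudogene RPL39P3, at chr6:73373108-73373263 on the minus strand (GENCODE 29, GRCh38), had the highest FPKM of the whole table, at 15305 and 15438 FPKM in the control libraries and 13859.9 and 13169.6 FPKM in the ETS1 libraries. It held 96091 reads in control replicate 1, where RPL39 itself (chrX:119786504-119791643, minus strand) held 30319. The 156 bases of RPL39P3 are the same, base for base, as the 156 coding bases of RPL39, with 0 differences, so no read that lies within them can be told apart by its sequence. The paralog RPL39L (chr3:187120948-187180908, minus strand) differs at 8 of the same 156 positions. The coding sequences follow, 5′ to 3′ from the GENCODE 29 transcripts, with the bases of RPL39L that differ from RPL39 in capitals.
RPL39 and RPL39P3: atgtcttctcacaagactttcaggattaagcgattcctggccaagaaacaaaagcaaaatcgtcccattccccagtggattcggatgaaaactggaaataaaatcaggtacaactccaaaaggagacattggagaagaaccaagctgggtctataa
RPL39L: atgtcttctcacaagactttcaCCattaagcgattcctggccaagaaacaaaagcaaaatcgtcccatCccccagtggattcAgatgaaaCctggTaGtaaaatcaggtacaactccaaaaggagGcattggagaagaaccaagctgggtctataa
How the authors' counting shared out reads that match more than 1 place is not given in the sources used here.

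Other pseudogenes of high level were nearly as close to their parents. Over their aligned length RPL3P4 shared 99.5% of its bases with the RPL3 coding sequence, RPS3AP6 99.5% with RPS3A and RPL13AP5 99.5% with RPL13A. When the reads of each parent and its pseudogenes were added, and voom with limma was run on the recovered reads, RPL39 changed by -0.20 (adjusted p = 0.000722), against -0.22 (adjusted p = 0.104) for RPL39 alone in the same kind of fit. RPSA changed by -0.35, RPL3 by -0.16 and RPS2 by -0.14 with the pseudogene reads added, and by -0.28, -0.11 and -0.098 without them. All 3 were called lower in both voom fits (adjusted p without the added reads = 0.000426, 0.0185 and 0.00946). RPL13A, at 461 and 469 FPKM in the control libraries and 454 and 439 FPKM in the ETS1 libraries, changed by -0.057 alone and by 0.022 with its pseudogenes in these voom fits (adjusted p = 0.106 and 0.549). Counted this way, 71 members were called lower and 1 higher, and the same voom fit without the pseudogene reads gave 70 and 1.

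**Figure D4:**
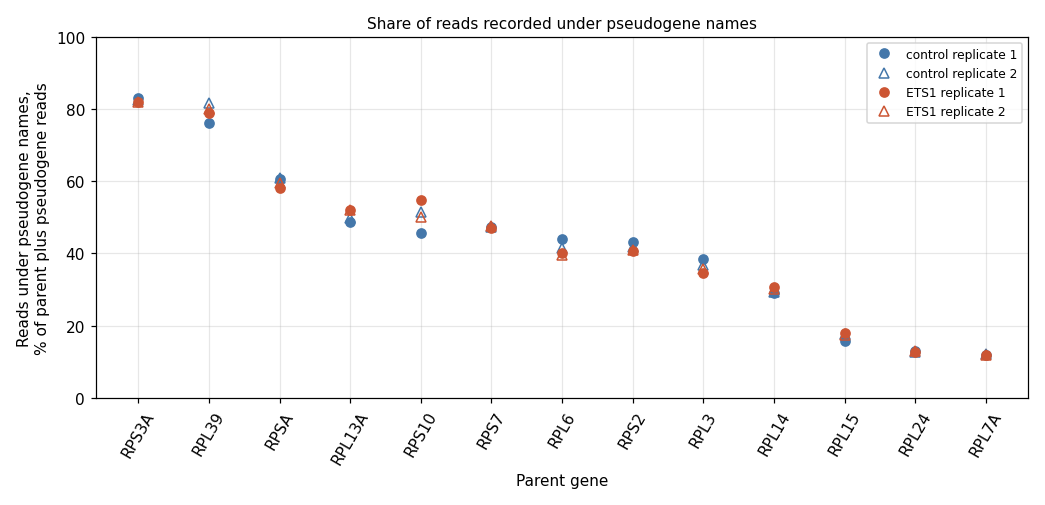
Percent of the reads of a parent and its pseudogenes that stood under pseudogene names, per library, for 13 of the parents with the highest shares. The mean control share ran from 82.8% for RPS3A down to 11.96% for RPL7A, and the 4 libraries lay close together for most parents.

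Ribosomal protein genes are scattered over the genome, and in these libraries the median change differed between chromosomes. The median change of tested genes outside the family was -0.23 on chromosome 15, -0.16 on chromosome 8 and -0.092 on chromosome 9, and 0.14 on chromosome 18, where RPL17 lies. Regions within a chromosome differed too, so its median does not describe all of it. The 20 nearest genes on each side had a median of -0.33 around RPL8 and 0.18 around RPL7, both on chromosome 8. On chromosome 9 it was -0.22 around RPL7A and 0.19 around RPS6. The 11 members on chromosomes 8, 9 and 15, among them RPLP1 and RPL4 on chromosome 15 and RPL12, RPL35 and RPS6 on chromosome 9, had a median change of -0.42. The 70 members with a position elsewhere had a median of -0.22, and 51 of them were called lower. The share called lower was 28.4% of all tested genes and 59.1% of abundant genes outside the family. Set against the median of other genes on its own chromosome, 78 of 81 members were lower, and against the 20 nearest genes on each side 76 of 81 were. With the chromosome median removed, 64 members were called lower and 0 higher, and RPL17 changed by 0.073 (limma adjusted p = 0.344).

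**Figure D5:**
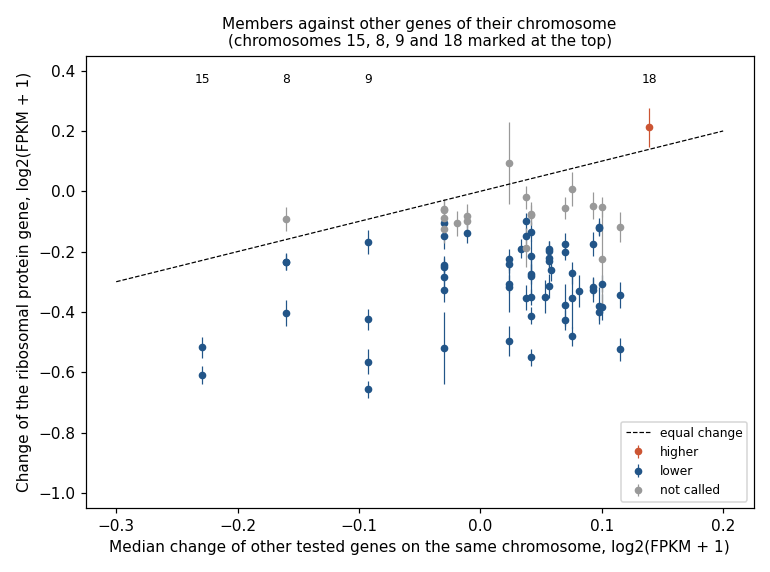
Change of 79 of the tested members with a position (log2(FPKM + 1), with its standard error) against the median change of the other tested genes on its chromosome. Points under the dashed line of equal change number 76, and the other genes of chromosomes 15, 8 and 9 had the lowest medians.

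A start tract was common among members that fell and among members that did not pass the test. Of 66 members matched to a RefSeq promoter, 47 (71.2%) began with a C and at least 4 further C or T bases, where 6.24% of 15843 protein-coding genes did. Of the 47, all tested, 36 fell, with a median change of -0.22. Among 18 tested members without the tract 13 fell, with a median of -0.26. The shares called lower were 28.4% of all tested genes and 59.1% of abundant genes outside the family. RPL27A, RPL13A and RPS16, printed above with tracts of 7, 7 and 8 bases, did not pass the test, while RPLP1 and RPL35, with 11 bases each, and RPL32, RPS28 and RPS26, with none, fell.

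The letters of a typical ETS site were also looked for. CCGGAAGT, on either strand (ACTTCCGG on the other), was found in 10 of 66 promoters (15.2%), taken from 250 bases before to 50 bases after the start, against 6.97% of all protein-coding genes. Of these, 3 are shown as windows of 30 bases with the match in capitals (RefSeq, GRCh38.p14, 5′ to 3′ on the gene's strand), since these members differed in their change.
RPL32: aagagccggagCCGGAAGTgcttgcctttt
RPS6: attaatctcgcCCGGAAGTaccgcccaccc
RPL27A: ggcctctgtgaCCGGAAGTgaggcgttttg
They lie at chr3:12841598-12841627, chr9:19380322-19380351 and chr11:8682716-8682745. RPL32 changed by -0.55, RPS6 by -0.17 and RPL27A by -0.020, the last of which did not pass (limma adjusted p = 0.660). Of the 10 members with the letters 7 fell, with a median of -0.18, and of 55 tested members without them 42 fell, with a median of -0.26. Among all tested genes 28.4% were called lower, and among abundant genes outside the family 59.1%. AAGATGGCG, the core of a YY1 site, was found in 9.09% of the members against 3.21% of all, and the GC box GGGCGG in 57.6% against 64.3%, each on either strand. A match describes the letters in this window, and binding was not measured.

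Genes around the family were read from lists. Among ribosomal protein genes that the naming rule leaves out, FAU, which encodes a ubiquitin-like fusion with RPS30, was at 247 and 244 FPKM in the control libraries and 172 and 170.2 FPKM in the ETS1 libraries and fell by 0.51 on the log2 scale. RPS27L, a paralog of RPS27 that p53 induces, was at 40.3 and 36.8 FPKM in the control libraries and 18.7 and 18.2 FPKM in the ETS1 libraries and fell by 1.02. RPL36AL, a retrocopy of RPL36A that is itself expressed, was at 240.3 and 250.1 FPKM in the control libraries and 259 and 244 FPKM in the ETS1 libraries, and its change of 0.035 did not pass (limma adjusted p = 0.502). RPL36A itself was at 8.39 and 8.29 FPKM in the control libraries and 7.97 and 8.04 FPKM in the ETS1 libraries.

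Lists of ribosome assembly genes are given beside the 28.4% of all tested genes called lower and 30.7% called higher, and the 59.1% of abundant genes called lower. Of 33 tested proteins of the box C/D and H/ACA particles and of early processing, 27 were called lower and 2 higher, with a median of -0.27. NOP10, of the H/ACA particle, changed by -1.03, IMP3 by -0.73 and fibrillarin (FBL), the box C/D methyltransferase, by -0.52. NPM1 changed by -0.23, and nucleolin (NCL) was one of the 2 called higher, at 0.43 (limma adjusted p = 0.000605). Of 32 large subunit assembly factors 22 were lower and 2 higher (NOP16 -0.62), of 20 genes of RNA polymerase I and its factors 11 lower and 3 higher (ZNRD1 -0.78), and of 12 ribosomal protein chaperones and importins 6 lower and 3 higher (GRWD1 -0.48). Their medians were -0.21, -0.13 and -0.090.

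Lists of regulators are read beside the same shares of all tested genes, and no difference between lists was tested. Of 28 tested genes of mTORC1 signalling and of the control of tract-bearing mRNAs, 10 were lower and 10 higher, with a median of -0.051. LARP1, which binds the tract, rose by 0.14 and MTOR by 0.099, EIF4EBP1, a repressor of cap-dependent initiation, changed by -0.57 and TIA1, another tract-binding protein, by 0.59. MYC, an activator of ribosome genes, was at 20.1 and 21.4 FPKM in the control libraries and 19.4 and 18.6 FPKM in the ETS1 libraries, and its change of -0.12 did not pass (limma adjusted p = 0.0653). In the list around the 5S particle and MDM2, 5 of 10 were lower and 3 higher, with MDM2 at 0.26 and CDKN1A, a target of p53, at 0.42. Of 18 genes of ribosome quality control 5 were lower and 7 higher (LTN1 0.62, EDF1 -0.50), or 27.8% lower, beside 28.4% of all tested genes.

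Mitochondrial ribosomal proteins, which are encoded in the nucleus and build a separate ribosome, gave counts close to those of the cytosolic ones. Of 72 tested, 57 were called lower and 1 higher (MRPL44, 0.59), with a median of -0.26 beside -0.23 for the cytosolic members, where 28.4% of all tested genes were called lower and 30.7% higher and 59.1% of abundant genes lower. The 2 sets share no gene, and the difference between them was not tested.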

How the data were processed

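RNA of 4 TE5 libraries, 2 with the ETS1 vector and 2 with the empty vector, was sequenced. The authors deposited FPKM per gene name, from reads processed with HISAT2, HTSeq and DESeq2 on hg38 (GRCh38), per the submitters' processing notes. Versions, the annotation, the use of strand and the treatment of reads that match several places are not given in the sources used here. A second deposited table holds the authors' mean normalised counts (a signal averaged over the libraries), log2 fold changes, p-values and adjusted p-values, per the file headers.

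The deposited FPKM were taken as log2(FPKM + 1), and names with a mean of at least 1 FPKM (14306, of which 82 are members) were fitted with a group term in limma 3.58.1 (R 4.3.3) with an intensity trend on the prior, 2 residual and 2.84 prior degrees of freedom. Two-sided p-values were adjusted over all genes tested by the Benjamini-Hochberg method, and 0.05 was the threshold. On this scale the changes of low genes are understated. Summaries used Python 3.11.15, pandas 2.3.3, numpy 2.4.6 and Biopython 1.88. A simulation with known changes (14293 genes tested) set the extra variation between libraries at 2.5% and changed few genes, at most 50 tested per fold. In it 36% of 1.2-fold, 90% of 1.5-fold and 100% of 2-fold changes were recovered, 7.19% of calls were false, and 0 genes were called with nothing changed. It gave 167 calls against 8451 in the data, so these shares need not hold for the data. Reads were recovered from FPKM, gene length and the authors' mean counts. Of the values of 2885 low genes, 99.3% lay within 0.05 of a whole read. The ETS1 libraries were 1.35 times as deep.

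The members and lists were chosen with earlier results of these data known. The text names the 5 largest falls and 3 highest changes of each subunit, paralogs with their parents, RPSA, RPLP0, RPLP1, RPLP2, RPL5, RPL11, RPS6, RPS4X, the 5 members of highest level and, per list, up to 3 called genes. A few genes that this rule takes are not reported here and are left out of the figures, but they stand in the counts, sums and medians. Members given with their role or sequence, and the pseudogenes, were chosen after their values were seen. Gene positions, exons and coding sequences are from GENCODE 29, and promoters and older names from RefSeq. Coding sequences of a paralog or pseudogene and its parent were compared by pairwise alignment. The alternatives covered the pseudocount, filter, scaling, replicate block, prior, length and GC, chromosome position, the authors' values, single libraries and a threshold of 0.01. Removal of the median of neighbouring genes, voom on recovered reads, pseudogene reads added to the parent, and the members without the 3 older names and without those under 1000 reads were chosen after seeing the data.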

Additional observations from a re-analysis of the deposited data

How the results depend on the processing

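The members called lower numbered 62, and 41 to 72 over all alternatives (lowest after quantile normalization, highest in the authors' deposited table), so the direction held in each. Leaving out 1 library gave 47 to 59, and 47 of the 62 were also called without ETS1 replicate 2. With the replicate number as a block, 56 were lower and 1 higher, and deviations of same-numbered libraries correlated at -0.046 over 14306 genes, so the numbers are not shown to pair the libraries. A call of higher was made for 1 member and for 4 after quantile normalization, 2 with the length and GC trend removed, 4 with the neighbouring median also removed, and 0 without the filter, at a mean of at least 5 FPKM, with the chromosome or neighbouring median removed, in the authors' table, at a threshold of 0.01 and without low members and older names. Single libraries left out gave 0 to 1. All genes called were 8451, and 5562 at 5 FPKM and 5386 at 0.01. The members' median was -0.23, and -0.26 with trimmed-mean scaling, -0.11 with quantile normalization, -0.17 with the length and GC trend removed, -0.26 with the chromosome median removed, -0.27 with the neighbouring median removed, -0.18 with both, and -0.26 in the authors' table (single libraries left out: -0.26 to -0.22). Large minus small was -0.089, and -0.099 without the filter, -0.063 with quantile normalization, -0.064 and -0.027 with the chromosome or neighbouring median removed, 0.016 with the neighbouring median and the length and GC trend removed, and -0.10 in the authors' table (single libraries left out: -0.10 to -0.065). Its sign changed only where both were removed. For RPL3L against RPL3 the value was -0.29 as a log2 ratio of FPKM, and -0.077 on the log2(FPKM + 1) scale of the fit without the filter and -0.13 in the authors' table. For RPL7L1 against RPL7 it was 0.18, and 0.13 (quantile), 0.13 (length and GC), -0.050 (chromosome), 0.37 (neighbours), 0.28 (neighbours, length and GC) and 0.14 to 0.22 (single libraries left out). For RPL22L1 against RPL22 it was 0.12, and 0.093 (quantile), 0.17 (length and GC), -0.049 (neighbours) and 0.038 (neighbours, length and GC). Without mitochondrial genome genes the members' share was 13.8% and 12.4% in place of 12.5% and 10.4%.

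Among members named with their change, signs turned as follows. With quantile normalization the changes were 0.050 for RPL22L1, 0.062 for RPL3, 0.056 for RPL7L1, 0.062 for RPL27A, 0.0071 for RPS2, 0.028 for RPS3, 0.13 for RPS7, 0.053 for RPS15, 0.069 for RPS20 and 0.016 for RPS23, none called higher, and 0.073 for RPL13A and 0.082 for RPS16, both called higher (adjusted p = 0.0480 and 0.0214). With the length and GC trend removed they were 0.11 for RPL39L, called higher (adjusted p = 0.0294), and -0.019 for RPL6, 0.076 for RPL13A, 0.036 for RPS2, 0.0033 for RPS15 and 0.049 for RPS16, not called. With the neighbouring median removed they were -0.0015 for RPL6, 0.012 for RPL13A and 0.022 for RPS16. With both removed, RPL13A (0.13, adjusted p = 0.0168) and RPS16 (0.14, 0.0178) were called higher, while 0.030 for RPL8, 0.047 for RPL39L, 0.067 for RPS2 and 0.018 for RPS15 were not called. With the chromosome median removed they were -0.067 for RPL6 and 0.067 for RPS20. RPL6 was at -0.014 with trimmed-mean scaling, -0.017 in the authors' table and -0.062 with pseudogene reads added, and RPL13A at 0.022 with them added. Leaving out single libraries gave -0.069 to 0.086 for RPL6, -0.085 to 0.27 for RPL26, -0.055 to 0.015 for RPL27A and -0.46 to 0.0070 for RPL39. Of up to 20 alternatives, the threshold of 0.01 included, 9 ended the call of RPL17, 9 that of RPS6, 8 each those of RPS3 and RPS15, 6 each those of RPS18 and RPL23A, 4 each those of RPS28 and RPL19, 3 each those of RPSA, RPL10A and RPS23 and 1 each those of RPL5, RPL7, RPL8, RPL22, RPL26L1 and RPS10, besides the sign changes above. Calls of lower were gained by RPL22L1, RPL39L, RPS7, RPS20 and RPL27A with the neighbouring median removed, by RPL22L1, RPS7, RPS20 and RPL27A with both removed, by RPL22L1, RPL39L, RPL7L1 and RPS7 with the chromosome median removed, by RPL7L1 with the length and GC trend removed, by RPL39L and RPS2 with trimmed-mean scaling, by RPS2 with a robust prior, by RPL3, RPL13A, RPS2, RPS16 and RPS20 in the authors' table, by RPL3, RPS2 and RPS20 in both voom fits, by RPL39 with pseudogene reads added and by RPL39 without control replicate 2. With quantile normalization RPL6 gained a call of higher. For RPS6 the adjusted p reached 0.193 (no filter), for RPS18 0.695 (both removed, change -0.017), for RPSA 0.363 and for RPL22 0.229 (both quantile normalization). For RPL26L1 against RPL26, leaving out single libraries gave -0.73 to -0.21 in place of -0.48. The cause of these shifts was not tested. RPL17 and RPS10 had under 1000 reads in each library.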
